A study of Mus musculus with 30 samples.

Results

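The genes described here encode the receptors for corticosteroids in the mouse dorsal hippocampus and a set of genes that these receptors are known to switch on. There were 10 members, taken by symbol from a table of 24883 genes: the glucocorticoid receptor gene Nr3c1, the mineralocorticoid receptor gene Nr3c2, and the targets Fkbp5, Sgk1, Tsc22d3, Zbtb16, Mt1, Mt2, Plin4 and Cdkn1a. All 10 had a row, and 9 passed the filter for testing, a mean of at least 1 FPKM (fragments per kilobase of transcript, scaled to the mapped fragments of the library) that 13184 genes met. Plin4 did not, and takes its value from a fit without the filter.

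RNA came from a dissected hemisphere of dorsal hippocampus of 30 wild-type male C57BL/6J mice, young adult and single-housed, with 1 library per mouse and 6 mice in each of 5 conditions. VEH-HC mice stayed in the home cage with handling and received the transfection reagent jetPEI without DNA. VEH-T10 mice received the same vehicle and 10 min of object location training, a duration that forms a long-term memory, and VEH-T3 mice received vehicle and 3 min of training, a duration that does not. Y397F-T10 mice received a plasmid for the Y397F form of CREST (Ss18l1) before 10 min of training. CREST is a subunit of the neuronal BAF chromatin remodelling complex, and in this form a tyrosine is changed to phenylalanine (phospho-null in the labels). Y397D-T3 mice received the Y397D form, with an aspartic acid at that residue (phospho-mimetic in the labels), before 3 min of training. The study could not detect phosphorylation of this tyrosine, and it calls both forms point mutants only. The plasmids carried a CaMKII-derived promoter, were infused on both sides, and left the mouse's own Ss18l1 gene in place. No condition received a plasmid for unmutated CREST or an empty plasmid, so plasmid delivery and the amino acid change cannot be told apart. Trained mice were sampled 1 h after training, and the stress hormone itself was not part of the data. In the study's object location task, mice were also habituated to the chamber on the days before training, whereas home cage mice were handled only. In differences between trained and home cage mice, training and habituation therefore cannot be told apart.

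Corticosterone, the main glucocorticoid of the mouse, binds both receptors. The mineralocorticoid receptor has the higher affinity, is abundant in hippocampal neurons and is largely occupied at resting hormone levels, whereas the glucocorticoid receptor fills during stress and at the daily hormone peak. Unbound receptors sit in the cytoplasm with heat shock proteins and their co-chaperones. The bound receptors enter the nucleus and bind palindromic response elements near their target genes, so that the RNA of such targets is widely used as a readout of receptor activity.

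The promoter sequences of Sgk1, Mt1 and Mt2 are shown because they held a whole response element for the receptors or several metal response cores. The windows cover the 250 bases before a RefSeq transcript start (GRCm38.p6, plus strand, written 5′ to 3′). Sgk1 lies on chromosome 10 at 21882184 to 21999903, and the window chr10:21993640-21993889 precedes a transcript start inside the gene. Mt2, at 94172664 to 94173568 of chromosome 8, and Mt1, at 94179082 to 94180327, are neighbours on the same strand, with the windows chr8:94172368-94172617 and chr8:94178839-94179088. Capitals mark the strict response element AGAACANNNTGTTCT in Sgk1, a looser element GNACANNNTGTNC and a metal response core in Mt1, and 3 metal response cores (TGCGCNC or TGCACNC, on either strand) in Mt2.
Sgk1: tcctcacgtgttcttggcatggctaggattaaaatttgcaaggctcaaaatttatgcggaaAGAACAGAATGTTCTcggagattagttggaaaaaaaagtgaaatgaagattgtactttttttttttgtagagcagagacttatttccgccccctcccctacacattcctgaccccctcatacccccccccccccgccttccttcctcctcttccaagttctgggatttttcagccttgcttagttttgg
Mt1: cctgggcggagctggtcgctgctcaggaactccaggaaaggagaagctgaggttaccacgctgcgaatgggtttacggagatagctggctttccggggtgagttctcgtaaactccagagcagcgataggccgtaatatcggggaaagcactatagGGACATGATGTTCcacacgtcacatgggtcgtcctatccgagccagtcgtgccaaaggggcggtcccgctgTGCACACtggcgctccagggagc
Mt2: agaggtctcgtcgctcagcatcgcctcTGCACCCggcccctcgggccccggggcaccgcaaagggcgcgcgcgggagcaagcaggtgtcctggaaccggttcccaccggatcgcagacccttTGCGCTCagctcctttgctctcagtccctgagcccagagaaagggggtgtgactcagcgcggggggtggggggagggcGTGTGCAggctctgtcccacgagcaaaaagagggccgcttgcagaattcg
The strict element was found in 3 of 32851 promoter windows of 300 bases on either strand (0.00913%), and the Sgk1 copy began 189 bases before the start. The looser element, which every strict element contains, was in 0.475% of windows, and its Mt1 copy began 94 bases before the start. The metal cores were commoner, with TGCGCNC in 15.4% and TGCACNC in 12.6% of windows. The tables gave 16 windows for 8 of the 10 members, with no entry for Nr3c1 and Zbtb16. The single hexamer AGAACA, in 19.0% of all windows, was found in windows of Sgk1 and Tsc22d3. A match of letters is a description of the window and was not tested for binding.

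The members differed widely in level. Medians over the 30 libraries were 625 FPKM for Mt1 and 346 FPKM for Mt2, the small zinc-binding metallothioneins. They were 36.3 FPKM for Sgk1, 32.8 for Nr3c2, 27.0 for Tsc22d3, 17.2 for Fkbp5, 13.6 for Nr3c1, 9.55 for Zbtb16, 7.90 for Cdkn1a and 0.388 for Plin4. Sgk1, Nr3c2 and Tsc22d3 overlapped in range and their order was not fixed beyond the spread between mice, and the same held for Zbtb16 and Cdkn1a. Fkbp5 and Nr3c1, and Nr3c1 and Zbtb16, overlapped only at the ends of their ranges. Tsc22d3 lay above Fkbp5 in all libraries, and Plin4 below every other member. The longest annotated transcripts of Mt1 and Mt2 are 1085 and 511 bases. Mouse-to-mouse spread was smallest for Nr3c1, with 11.5 to 15.04 FPKM over all libraries, and the highest library exceeded the lowest 6.11-fold for Cdkn1a, 4.48-fold for Plin4 and 3.59-fold for Mt2.

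**Figure D1:**
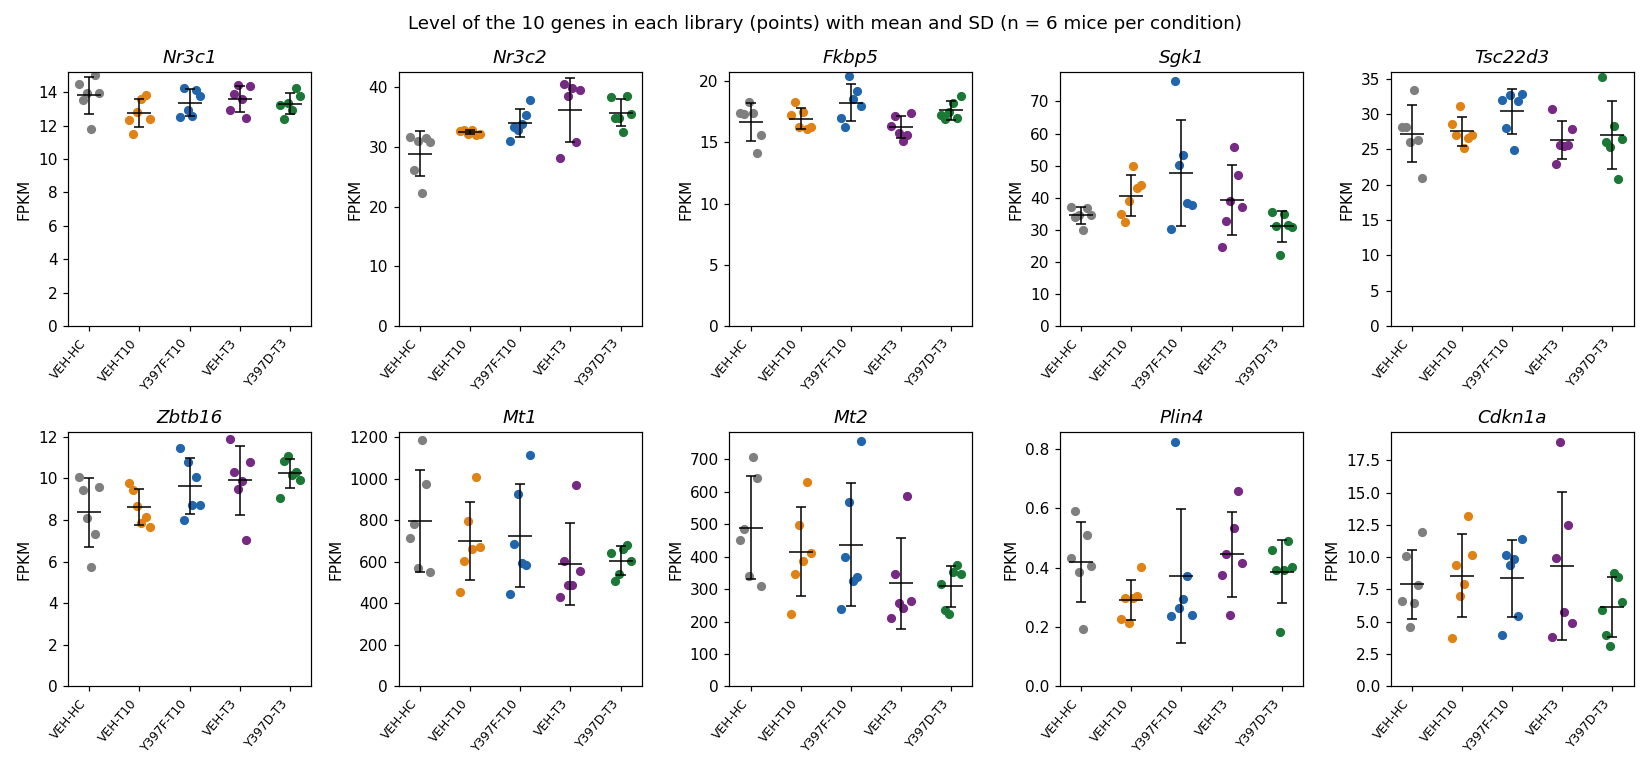
FPKM of each of the 10 genes (vertical axes, from 0) in the 30 libraries, grouped by condition. Points are mice, the bar is the mean and the whiskers are the SD (n = 6). Nr3c2 lies between 22.3 and 31.5 FPKM in VEH-HC and between 32.0 and 32.8 FPKM in VEH-T10, while Cdkn1a spreads from 3.09 to 18.9 FPKM and all conditions overlap.

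The question put to each member was whether its RNA differed between trained and home cage mice, and whether either CREST mutant shifted it from the vehicle group trained for the same time. Differences are in log2(FPKM + 1), from limma with Benjamini-Hochberg adjustment over all 13184 genes, and a call is an adjusted p under 0.05. Nr3c2 was called higher in VEH-T3, in Y397D-T3 and in the mean of all trained conditions. No other member was called in any of the 8 comparisons. In VEH-T3 against VEH-HC, 1 of 9 members was called, where 5.17% of all genes were. In Y397D-T3 it was 1 of 9 against 7.07%, and for all trained conditions 1 of 9 against 9.66%. VEH-T10 and Y397F-T10 against VEH-HC gave 0 of 9, where 0.819% and 1.13% of all genes were called. At an unadjusted p under 0.05 these counts were 2 and 3 of 9, beside 14.9% and 16.9% of all genes. A test built like the Cyber-T method of the study gave 0 and 2 of 9 (Nr3c2 and Sgk1 in Y397F-T10), beside 3.3% and 3.22%. Home cage mice are shared by these comparisons, so they are not separate evidence.

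The median difference of the 9 members from VEH-HC was 0.03 in VEH-T10, -0.02 in VEH-T3, 0.12 in Y397F-T10 and -0.05 in Y397D-T3. Over all genes tested the medians were -0.03, -0.04, -0.04 and -0.03. Members thus lay on both sides of 0 in each condition, with 6, 4, 6 and 3 of 9 positive.

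**Figure D2:**
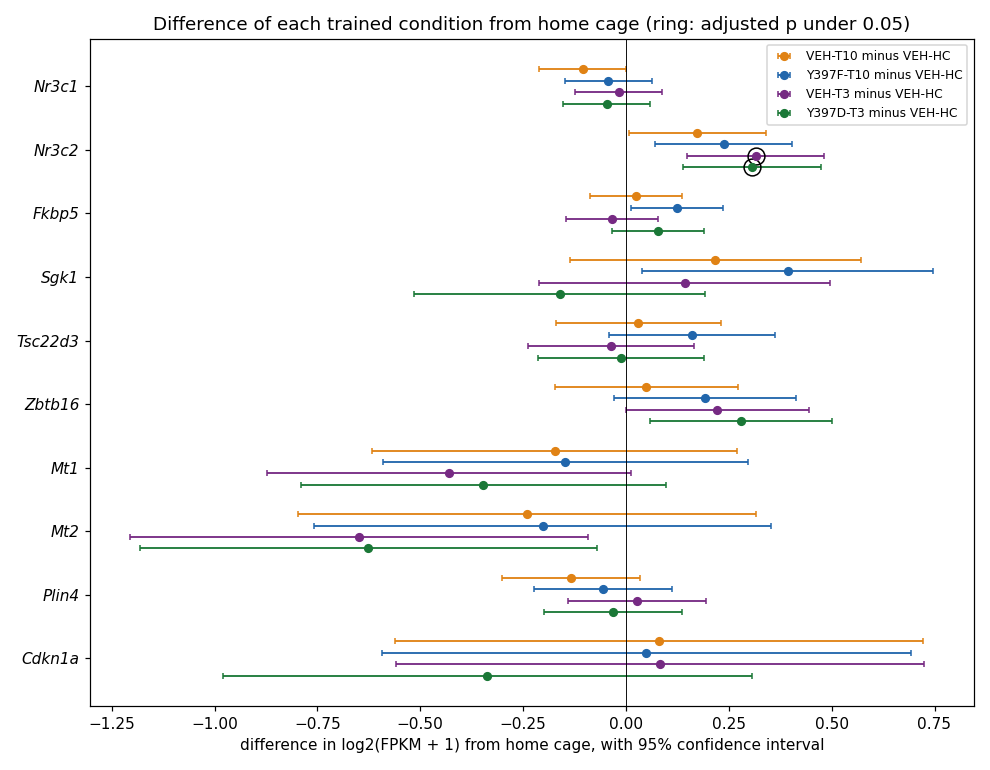
Difference in log2(FPKM + 1) of each trained condition from VEH-HC (horizontal axis) for the 10 genes, with 95% confidence intervals from limma (6 mice per condition). Rings mark an adjusted p under 0.05. The rings are at Nr3c2 in VEH-T3 (0.31) and Y397D-T3 (0.31), and the widest intervals belong to Cdkn1a and Mt2.

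Nr3c2 encodes the mineralocorticoid receptor. In VEH-HC its lowest, median and highest values were 22.3, 30.9 and 31.5 FPKM. They were 32.0, 32.4 and 32.8 FPKM in VEH-T10, and 30.9, 33.5 and 37.9 FPKM in Y397F-T10. They were 28.04, 39.0 and 40.5 FPKM in VEH-T3, and 32.5, 35.1 and 38.4 FPKM in Y397D-T3. All 6 VEH-T10 mice and all 6 Y397D-T3 mice lay above the highest home cage mouse, which held in the same direction for 0.789% and 2.5% of all genes tested. In VEH-T3, 4 mice lay above every home cage mouse and mice 1 and 5 lay within the home cage range.

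Mean Nr3c2 was 28.8 ± 3.81 FPKM in VEH-HC and 36.2 ± 5.35 FPKM in VEH-T3 (SD, n = 6 each), a ratio of 1.25. The difference was 0.31 on the log2 scale (standard error 0.08, limma adjusted p = 0.026). It was also 0.31 in Y397D-T3 (standard error 0.08, limma adjusted p = 0.022). Over all trained conditions it was 0.26 (standard error 0.06, limma adjusted p = 0.013), with 22 of 24 trained mice above the home cage median. VEH-T10 and Y397F-T10 differed from VEH-HC by 0.17 (limma adjusted p = 0.31) and 0.24 (limma adjusted p = 0.14), which missed the threshold.

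Among trained mice, no difference in Nr3c2 was called. Y397D-T3 and VEH-T3 differed by -0.01 (95% confidence interval -0.18 to 0.16), and Y397F-T10 and VEH-T10 by 0.06 (-0.10 to 0.23). VEH-T10 and VEH-T3 differed by -0.14 (-0.31 to 0.03). Differences of up to about the size of the home cage difference in VEH-T10 therefore lie inside these intervals.

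The calls for Nr3c2 rested on the 6 home cage libraries and on how the spread was estimated. Leaving out VEH-HC mouse 4, the lowest at 22.3 FPKM, or VEH-HC mouse 2, at 26.1 FPKM, ended all 3 calls, with limma adjusted p of at most 0.085. The VEH-T3 call also ended without VEH-T3 mouse 2, 3, 4 or 6 and in a fit of the 12 libraries compared (adjusted p = 0.16), and the Y397D-T3 call ended without Y397D-T3 mouse 5.

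VEH-HC mouse 4 was at the lowest or highest end of its condition for 8 of 10 members. It was lowest for Nr3c1, Nr3c2, Sgk1, Zbtb16 and Plin4 and highest for Tsc22d3, Mt1 and Mt2. Its choroid plexus marker level of 3.85 and its thalamus marker level of 2.29, each a mean log2(FPKM + 1) over a marker list, were the lowest of the home cage mice. Y397F-T10 mouse 1 was likewise at an end for 8 members, and lowest of its condition for 7 of them.

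Markers of neighbouring regions differed between the same conditions. The 4 thalamus markers, all detected, had a mean level of 2.29 to 2.59 in VEH-HC against 1.88 to 2.24 in VEH-T10, 1.67 to 2.27 in Y397F-T10, 2.15 to 2.50 in VEH-T3 and 1.93 to 2.24 in Y397D-T3. Levels in VEH-T10, Y397F-T10 and Y397D-T3 thus lay wholly below those in VEH-HC. Thalamus level and condition cannot be told apart there, so values with this covariate, here and below, are descriptions of the fit. With that level as a covariate the Nr3c2 difference was 0.33 in VEH-T3 (limma adjusted p = 0.028), 0.33 in Y397D-T3 (limma adjusted p = 0.080) and 0.28 in all trained mice (limma adjusted p = 0.053).

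The 4 dentate granule markers ranged from 3.54 to 3.72 in VEH-HC and from 3.08 to 4.18 in VEH-T3. VEH-T3 mice 1 and 5, with the lowest Nr3c2, also had the lowest dentate levels of that condition, 3.08 and 3.12. Over the 30 libraries Nr3c2 followed this list with Pearson r = 0.49 and Spearman rho = 0.70 (permutation p = 0.0056 and 4e-05, adjusted over 130 relations 0.037 and 0.00074). Without the 2 libraries farthest from the list's median, r was 0.55. Centred on condition means it was 0.51 (permutation p = 0.0086, adjusted 0.043). Nr3c2 ran against the 5 interneuron markers, with r = -0.50 and rho = -0.47 (permutation p = 0.0042 and 0.0094, adjusted 0.032 and 0.061). Without 2 libraries this r was -0.45. Centred on condition means it was -0.38 (permutation p = 0.062, adjusted 0.16), which did not pass. The interneuron level was 5.50 to 5.86 in VEH-HC, 5.35 to 5.93 in VEH-T3 and 5.31 to 5.81 in Y397D-T3, and its part in the Nr3c2 difference was not tested. With the dentate level as a covariate the difference was 0.29 in VEH-T3 (limma adjusted p = 0.019), 0.26 in Y397D-T3 (limma adjusted p = 0.027) and 0.24 over all trained mice (limma adjusted p = 0.0091). The blood markers (4 of 5 in the table) had a mean level of 4.44 to 5.42 in VEH-HC and 5.41 to 7.02 in Y397D-T3, and the 6 choroid plexus markers 3.85 to 6.42 and 1.31 to 5.29. Their part in the Nr3c2 difference was not tested. In bulk tissue, fewer cells of a type and less RNA per cell cannot be told apart.

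Nr3c1 encodes the glucocorticoid receptor. Its lowest, median and highest values were 11.8, 14.0 and 15.04 FPKM in VEH-HC, 11.5, 12.6 and 13.8 FPKM in VEH-T10, and 12.5, 13.3 and 14.3 FPKM in Y397F-T10. They were 12.5, 13.7 and 14.4 FPKM in VEH-T3 and 12.4, 13.3 and 14.3 FPKM in Y397D-T3. All conditions overlapped. The difference farthest from 0, in VEH-T10, was -0.11 (95% confidence interval -0.21 to -0.00023, limma adjusted p = 0.33). The intervals of the other 3 conditions against VEH-HC reached at most 0.15 below 0 and 0.09 above it.

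The balance of the receptor genes was taken as Nr3c2 over Nr3c1 in each library, after their values had been seen and with no test. The ratio was 1.89 to 2.21 in VEH-HC. It was 2.31 to 2.85 in VEH-T10, 2.33 to 2.75 in Y397F-T10 and 2.51 to 2.89 in Y397D-T3, above every home cage mouse. In VEH-T3 it was 2.17 to 2.93, and 1 of these mice lay within the home cage range. VEH-HC mouse 4 had the lowest ratio, 1.89. Nr3c1 and Nr3c2 correlated over the libraries with r = 0.40 and rho = 0.28 (permutation p = 0.028 and 0.14, adjusted over 45 pairs of members 0.14 and 0.36), and r was 0.27 without 2 libraries. After centring on condition means r was 0.67 (permutation p = 0.00033, adjusted 0.0074).

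**Figure D3:**
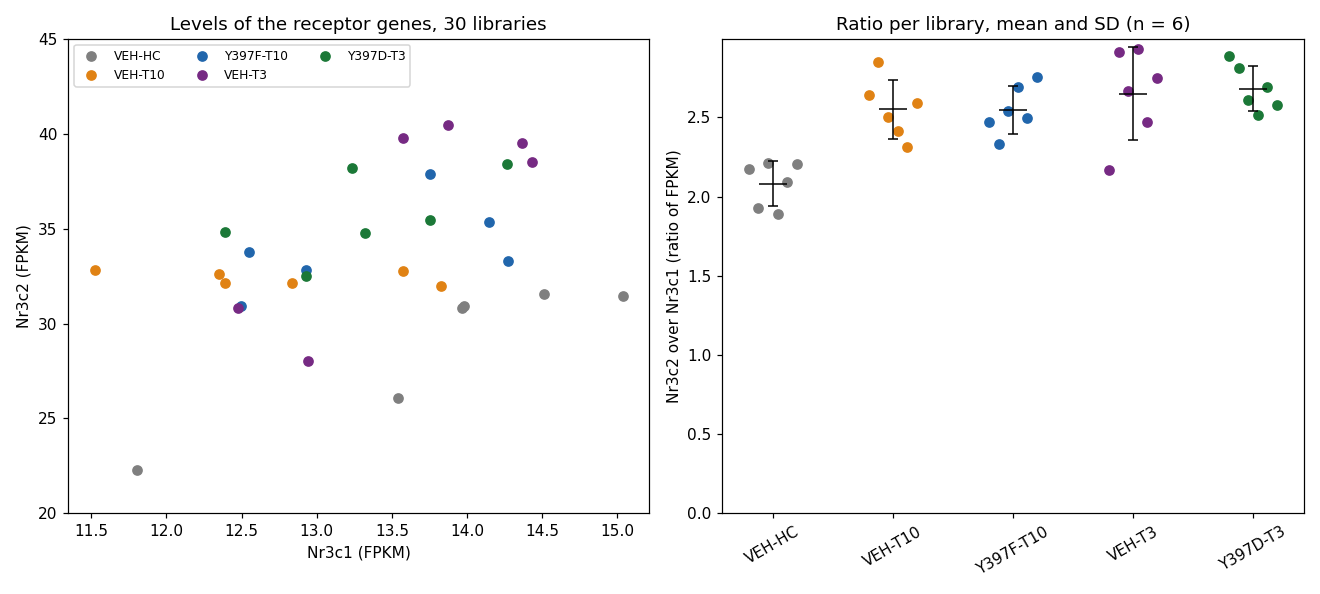
Left, Nr3c2 against Nr3c1 (both FPKM, axes not from 0) in the 30 libraries, coloured by condition. Right, their ratio per library with the mean and SD (n = 6). Home cage mice lie at ratios of 1.89 to 2.21, and trained mice at 2.17 to 2.93.

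Fkbp5 encodes a co-chaperone that lowers the hormone affinity of the glucocorticoid receptor and is itself induced by it. Its lowest, median and highest values were 14.1, 17.3 and 18.3 FPKM in VEH-HC, 16.1, 16.7 and 18.3 FPKM in VEH-T10, and 16.3, 18.2 and 20.4 FPKM in Y397F-T10. They were 15.1, 16.1 and 17.4 FPKM in VEH-T3 and 16.9, 17.3 and 18.8 FPKM in Y397D-T3, so that all conditions overlapped. Y397F-T10 differed from VEH-HC by 0.12 (95% confidence interval 0.01 to 0.23, limma adjusted p = 0.25). In VEH-T10 the difference was 0.02 (-0.09 to 0.14), and in VEH-T3 -0.03 (-0.15 to 0.08).

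Sgk1 encodes a serine/threonine kinase that acts on ion channels and transporters. Its values were 29.9, 34.7 and 37.2 FPKM (lowest, median and highest) in VEH-HC and 32.6, 41.1 and 49.999 FPKM in VEH-T10. They were 30.3, 44.2 and 76.5 FPKM in Y397F-T10, 24.7, 38.2 and 55.9 FPKM in VEH-T3, and 22.3, 31.3 and 35.6 FPKM in Y397D-T3. The trained conditions thus spread more than the home cage mice and overlapped them. Y397F-T10 differed from VEH-HC by 0.39 (95% confidence interval 0.04 to 0.75, limma adjusted p = 0.24), with 5 of 6 mice above the home cage median. VEH-T10 differed by 0.22 (-0.14 to 0.57) and Y397D-T3 by -0.16 (-0.51 to 0.19).

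By r, the Sgk1 level moved with endothelial, oligodendrocyte, choroid plexus and meningeal fibroblast markers, and against interneuron markers. Over the 30 libraries it followed the endothelial list with r = 0.66 and rho = 0.62 (permutation p = 4e-05 and 0.00033, adjusted 0.00065 and 0.0048), and with 2 libraries left out r was 0.60. With the oligodendrocyte list the correlation was r = 0.50 and rho = 0.50 (permutation p = 0.0060 and 0.0055, adjusted 0.037 and 0.045), and 0.46 with 2 libraries left out. With the mural list, also of vessels, r was 0.36 and rho 0.28 (permutation p = 0.055 and 0.13, adjusted 0.15 and 0.30), which did not pass. The correlation with the meningeal fibroblast list was r = 0.56 and rho = 0.39 (permutation p = 0.0012 and 0.034, adjusted 0.015 and 0.12). With the interneuron list it was r = -0.53 and rho = -0.58 (permutation p = 0.0019 and 0.00089, adjusted 0.020 and 0.011). Without 2 libraries these r were 0.43 and -0.45. With the choroid plexus list r was 0.51 and rho 0.45 (permutation p = 0.0035 and 0.014, adjusted 0.030 and 0.070). That r was 0.33 without 2 libraries, and 0.70 centred on condition means (permutation p = 0.00030, adjusted 0.0039). Y397F-T10 mouse 2, the highest at 76.5 FPKM, had a choroid plexus level of 7.28, against a condition median of 1.73. VEH-T3 mouse 4 (55.9 FPKM) and Y397F-T10 mouse 4 (53.5 FPKM) had levels of 7.37 and 6.70, whereas Y397F-T10 mouse 3 (50.1 FPKM) had 1.71. Endothelial levels overlapped between conditions, at 3.86 to 4.12 in VEH-HC and 3.68 to 4.21 in Y397F-T10.

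The call for Sgk1 depended on these settings. Without the 3 libraries of lowest astrocyte marker level (mouse 1 of VEH-T10, Y397F-T10 and VEH-T3) the Y397F-T10 difference was 0.51 (limma adjusted p = 0.046). With the thalamus level as a covariate it was 0.83 in Y397F-T10 (limma adjusted p = 0.034), 0.66 in VEH-T10 (limma adjusted p = 0.046) and 0.53 over all trained mice (limma adjusted p = 0.045), and the Y397D-T3 difference went from -0.16 to 0.26. The settings without the 3 libraries and with the thalamus level were chosen after the data were seen.

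Tsc22d3 encodes GILZ, a leucine zipper protein that carries anti-inflammatory effects of glucocorticoids. Its lowest, median and highest values were 21.0005, 27.3 and 33.4 FPKM in VEH-HC, 25.2, 27.0 and 31.1 FPKM in VEH-T10, and 24.9, 31.9 and 32.8 FPKM in Y397F-T10. They were 22.9, 25.6 and 30.7 FPKM in VEH-T3 and 20.8, 26.3 and 35.3 FPKM in Y397D-T3. All conditions overlapped, and the difference farthest from 0 was 0.16 in Y397F-T10 (95% confidence interval -0.04 to 0.36, limma adjusted p = 0.42).

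Zbtb16 encodes PLZF, a zinc finger transcription factor. It was lowest, median and highest at 5.74, 8.78 and 10.1 FPKM in VEH-HC, 7.66, 8.43 and 9.79 FPKM in VEH-T10, and 8.01, 9.42 and 11.5 FPKM in Y397F-T10. It was at 7.03, 10.1 and 11.9 FPKM in VEH-T3 and 9.08, 10.3 and 11.1 FPKM in Y397D-T3. All conditions overlapped the home cage range. The difference from VEH-HC was 0.28 in Y397D-T3 (95% confidence interval 0.06 to 0.50, limma adjusted p = 0.11) and 0.22 in VEH-T3 (limma adjusted p = 0.23). With the thalamus level as a covariate the difference over all trained mice went from 0.19 to -0.02.

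Mt1 and Mt2 encode metallothioneins, which bind zinc and copper and respond to glucocorticoids and to metals. Mt2 was 309, 468 and 706 FPKM (lowest, median and highest) in VEH-HC, 224, 398 and 629 FPKM in VEH-T10, and 239, 368 and 754 FPKM in Y397F-T10. It was 210, 260 and 585 FPKM in VEH-T3 and 223, 331 and 375 FPKM in Y397D-T3. The trained mice were lower at the median and overlapped the home cage mice in each condition. Differences from VEH-HC were -0.65 in VEH-T3 (95% confidence interval -1.20 to -0.09, limma adjusted p = 0.15) and -0.63 in Y397D-T3 (-1.18 to -0.07, limma adjusted p = 0.15). Below the home cage median were 5 of 6 VEH-T3 mice and 6 of 6 Y397D-T3 mice. Both passed before adjustment over genes, and also in the Cyber-T-style test, which does not adjust over genes.

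Mt1 was 550, 749 and 1185 FPKM in VEH-HC, 457, 668 and 1008 FPKM in VEH-T10, and 444, 642 and 1114 FPKM in Y397F-T10. It was 433, 523 and 971 FPKM in VEH-T3 and 507, 624 and 682 FPKM in Y397D-T3. Its differences from VEH-HC were -0.43 in VEH-T3 (limma adjusted p = 0.25) and -0.35 in Y397D-T3 (limma adjusted p = 0.32). Mt2 over Mt1 was 0.562 to 0.658 in VEH-HC, 0.475 to 0.603 in VEH-T3 and 0.413 to 0.573 in Y397D-T3, a description with no test. Mt2 was below Mt1 in every library.

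The metallothioneins rose and fell together from mouse to mouse. Over 30 libraries their correlation was r = 0.98 and rho = 0.97 (permutation p = 1e-05 for each, the smallest that 100000 permutations can give, adjusted over 45 pairs 0.00045). After centring on condition means r was 0.98, and without the 2 libraries farthest from the median of Mt1 it was 0.97. In this family, 4 of 45 pairs passed an adjusted p under 0.05, and all 4 did so after centring. Zbtb16 ran against both, with r = -0.67 and rho = -0.60 for Mt1 (permutation p = 7e-05 and 0.00064, adjusted 0.0010 and 0.0096). For Mt2 the values were r = -0.68 and rho = -0.64 (permutation p = 3e-05 and 0.00022, adjusted 0.00067 and 0.0049). Without the 2 libraries farthest from the Zbtb16 median these were -0.54 and -0.59. Zbtb16 also ran against the astrocyte list (r = -0.53, rho = -0.56, permutation p = 0.0025 and 0.0019, adjusted over 130 relations 0.025 and 0.019). With the microglia list it had r = -0.56 and rho = -0.60 (permutation p = 0.0014 and 0.00059, adjusted 0.016 and 0.0077), and with the endothelial list r = -0.51 and rho = -0.52 (permutation p = 0.0038 and 0.0044, adjusted 0.031 and 0.038). Without 2 libraries these r were -0.48, -0.44 and -0.38. Centred on condition means they were -0.48, -0.57 and -0.49 (permutation p = 0.0067, 0.0015 and 0.016). Their adjusted values were 0.035, 0.012 and 0.063, so the relation with the endothelial list did not pass. The part of these levels in its correlation with Mt1 and Mt2 was not tested. The pair that remains was Mt2 with Cdkn1a, at r = 0.53 and rho = 0.58 (permutation p = 0.0028 and 0.00096, adjusted 0.032 and 0.011), with r = 0.57 when 2 libraries were left out.

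**Figure D4:**
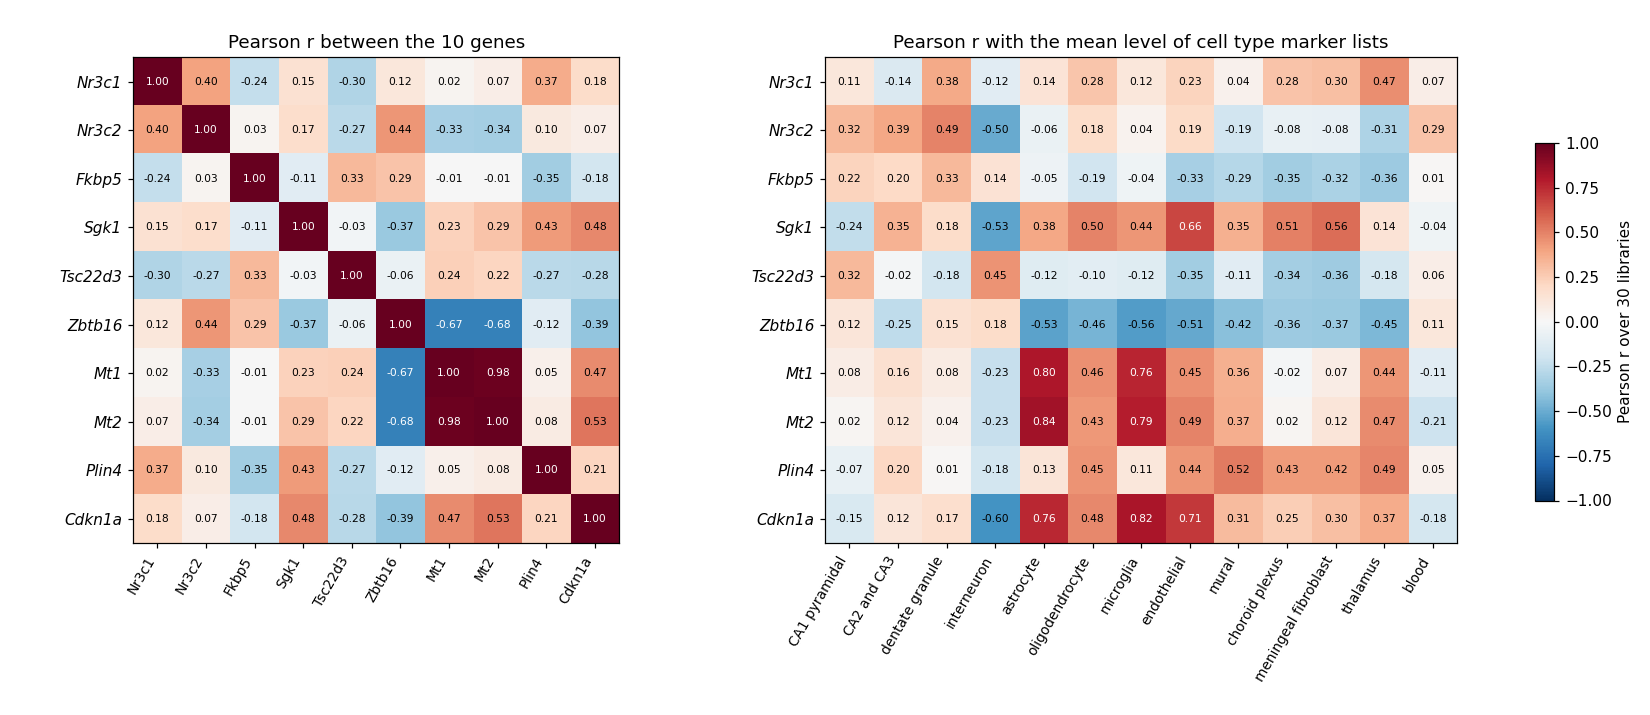
Pearson r over the 30 libraries between the 10 genes (left) and of each gene with the mean log2(FPKM + 1) of 13 cell type marker lists (right), printed in each cell and coloured from -1 to 1. Mt1 and Mt2 stand at 0.98 with each other and at -0.67 and -0.68 with Zbtb16. The astrocyte and microglia columns are high for Mt1, Mt2 and Cdkn1a.

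Both metallothioneins moved with astrocyte and microglia markers. Mt2 followed the 6 astrocyte markers with r = 0.84 and rho = 0.86, and Mt1 did so with r = 0.80 and rho = 0.84 (permutation p = 1e-05 for each, adjusted over 130 relations 0.00022). Centred on condition means, r was 0.86 and 0.81. Without the 2 libraries farthest from the list's median, r was 0.83 and 0.77. With the microglia list r was 0.79 and 0.76, and rho 0.79 and 0.77 (permutation p = 1e-05 for each, adjusted 0.00022), and without 2 libraries r was 0.75 and 0.71. With the oligodendrocyte list r was 0.43 and 0.46 (permutation p = 0.016 and 0.011, adjusted 0.061 and 0.053), which did not pass. By r, Mt2 also passed with the endothelial list (0.49, permutation p = 0.0056, adjusted 0.037) and the thalamus list (0.47, permutation p = 0.0082, adjusted 0.046). By rho neither passed (adjusted permutation p = 0.070 and 0.082). With the thalamus level as a covariate the Mt2 difference was -0.23 in VEH-T3, and it was positive in VEH-T10 (0.57), Y397F-T10 (0.60), Y397D-T3 (0.14) and over all trained mice (0.27, limma adjusted p = 0.51). The Mt1 difference likewise went to 0.43, 0.45, 0.22 and 0.25, and was -0.12 in VEH-T3. None of these was called.

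All 6 astrocyte markers were detected, at mean levels of 5.99 to 6.41 in VEH-HC, 5.71 to 6.51 in VEH-T3 and 5.88 to 6.30 in Y397D-T3. With the astrocyte level as a covariate the Mt2 difference over all trained mice was -0.33 (limma adjusted p = 0.043), against -0.43 (limma adjusted p = 0.21) without a covariate. It was 0.27 with the thalamus level, which cannot be told apart from the condition in VEH-T10, Y397F-T10 and Y397D-T3. With the astrocyte level the Mt2 difference was -0.41 in VEH-T3 (limma adjusted p = 0.057) and -0.40 in Y397D-T3 (limma adjusted p = 0.068).

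Plin4 encodes a coat protein of lipid droplets. It was near the floor of the table, at 0.192 to 0.589 FPKM in VEH-HC, 0.215 to 0.402 FPKM in VEH-T10 and 0.239 to 0.823 FPKM in Y397F-T10. It was 0.239 to 0.659 FPKM in VEH-T3 and 0.184 to 0.491 FPKM in Y397D-T3. No comparison called it in the fit without the filter, where the smallest adjusted p was 0.51. The log2(FPKM + 1) scale understates the change of a gene this low.

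Cdkn1a encodes the cyclin-dependent kinase inhibitor p21, a target of glucocorticoids and of the tumour suppressor p53. It was lowest, median and highest at 4.63, 7.23 and 11.96 FPKM in VEH-HC, 3.78, 8.68 and 13.2 FPKM in VEH-T10, and 3.94, 9.60 and 11.4 FPKM in Y397F-T10. It was at 3.84, 7.87 and 18.9 FPKM in VEH-T3 and 3.09, 6.25 and 8.81 FPKM in Y397D-T3. All conditions overlapped. The difference farthest from 0 among conditions against VEH-HC, -0.34 in Y397D-T3, had a 95% confidence interval of -0.98 to 0.31. It was 0.46 with the thalamus level as a covariate (limma adjusted p = 0.45), and the difference went from 0.08 to 0.92 in VEH-T10 (limma adjusted p = 0.10) and from -0.03 to 0.70 over all trained mice (limma adjusted p = 0.13).

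Cdkn1a followed the microglia list with r = 0.82 and rho = 0.79 (permutation p = 1e-05 for each, adjusted 0.00022), and r was 0.84 after centring on condition means and 0.79 without 2 libraries. It followed the astrocyte list with r = 0.76 and rho = 0.75 (permutation p = 1e-05 for each, adjusted 0.00022) and the endothelial list with r = 0.71 and rho = 0.69 (permutation p = 2e-05 and 6e-05, adjusted 0.00037 and 0.00097). Without 2 libraries these r were 0.72 and 0.64. Cdkn1a ran against the interneuron list with r = -0.60 and rho = -0.57 (permutation p = 0.00045 and 0.0012, adjusted 0.0065 and 0.013). That r was -0.51 without 2 libraries, and -0.67 centred on condition means (permutation p = 0.00019, adjusted 0.0031). In all, 24 of 130 relations of members with marker lists passed an adjusted p under 0.05. Of these, 18 were positive and 19 passed also after centring. Among them were Plin4 with the mural list (r = 0.52, permutation p = 0.0034, adjusted 0.030) and Nr3c1 with the thalamus list. The latter had r = 0.47 (permutation p = 0.0086, adjusted 0.047) and did not pass by rho (adjusted 0.051) or after centring (adjusted 0.15). The share of the marker levels in any difference between conditions was not tested beyond the covariates given.

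**Figure D5:**
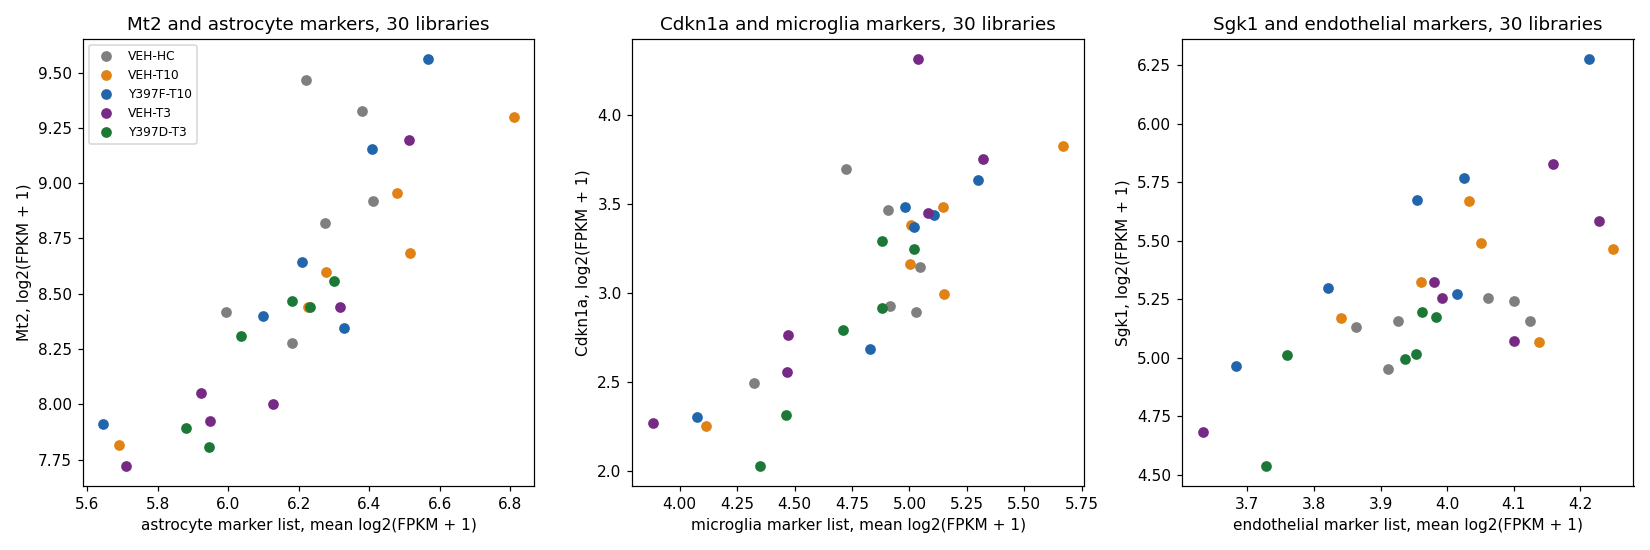
log2(FPKM + 1) of Mt2, Cdkn1a and Sgk1 (vertical axes) against the mean log2(FPKM + 1) of astrocyte, microglia and endothelial marker lists (horizontal axes) in the 30 libraries, coloured by condition, axes not from 0. The correlations are r = 0.84, 0.82 and 0.66, and the conditions overlap along each axis.

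The genes whose profile over the 30 libraries was most like that of each member are given as a description. For Cdkn1a they were Tlr13 (r = 0.93), Cybb (0.92) and Apobec1 (0.92), of which Tlr13 and Cybb are known from myeloid cells. For Mt1 they were Mt2 (0.98), Gpr37l1 (0.95), an astrocyte receptor, and Jam2 (0.92), and for Mt2 Mt1, Jam2 (0.95) and Prdx6 (0.93). Nr3c2 was most like Atp2b1 (0.85), a calcium pump of the plasma membrane, D830031N03Rik (0.84) and Frrs1l (0.84), an AMPA receptor assembly factor. Zbtb16 was most like Gatsl2, Ncam2 and Kcnma1 (0.88, 0.88 and 0.87), and Sgk1 like Adipor2, Eif4g2 and Rnft1 (0.84, 0.80 and 0.80). The values were lower for Fkbp5 (Mkl1, 0.77, Chst1, 0.71, and Cplx2, 0.71), Nr3c1 (Baz2b, 0.73, Zfp266, 0.70, and D16Ertd472e, 0.69) and Tsc22d3 (Mrrf, 0.68, Mfsd2a, 0.68, and Gnb1, 0.66). These libraries share tissue makeup and depth differences, and no p is given.

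Comparisons between trained conditions called no member. In Y397F-T10 against VEH-T10 it was 0 of 9 by limma, where 0.0% of all genes were called. It was also 0 of 9 at an unadjusted p under 0.05 and by the Cyber-T-style test, beside 3.78% and 0.197% of all genes. In Y397D-T3 against VEH-T3 it was 0 of 9, where 0.00758% of all genes were called. In VEH-T10 against VEH-T3 it was 0 of 9, where 0.0455% were called. Both comparisons also gave 0 at an unadjusted p under 0.05, beside 7.87% and 8.15% of all genes. By the Cyber-T-style test they gave 0 too, beside 0.599% and 0.622%. The member nearest to the threshold was Fkbp5 in Y397D-T3 against VEH-T3, with a difference of 0.11 (95% confidence interval -0.00019 to 0.22, limma adjusted p = 0.63). The interval for Sgk1 in the same comparison was -0.66 to 0.05, and for Mt2 it was -0.53 to 0.58.

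Around the members stand the proteins that hold, help or restrain the receptors. Of 12 chaperone and coregulator genes, all tested, 2 rose in VEH-T3, 1 in Y397F-T10, 2 in Y397D-T3 and 2 over all trained mice. Of all genes, 5.17%, 1.13%, 7.07% and 9.66% were called in either direction. None of the 12 fell, and none was called in VEH-T10. There limma gave 2 at an unadjusted p under 0.05, beside 14.9% of all genes. The Cyber-T-style test gave 0, beside 3.3%. The list's median difference over all trained mice was 0.02, against -0.04 for all genes. The 10 others, among them the heat shock protein genes Hsp90aa1 and Hsp90ab1 and the co-chaperone gene Fkbp4, were not called in any comparison.

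Nrip1, which encodes a corepressor of nuclear receptors, was 2.88, 4.81 and 5.23 FPKM (lowest, median and highest) in VEH-HC. It was 5.52, 6.11 and 7.35 FPKM in Y397F-T10 and 5.79, 6.01 and 6.47 FPKM in Y397D-T3, above every home cage mouse in both, as were 0.554% and 2.5% of all genes. It was 5.05, 6.04 and 7.37 FPKM in VEH-T3 and 4.51, 5.48 and 6.18 FPKM in VEH-T10. It rose by 0.41 in Y397F-T10, 0.37 in Y397D-T3, 0.39 in VEH-T3 and 0.35 over all trained mice (limma adjusted p = 0.032, 0.016, 0.018 and 0.0047). The calls in Y397D-T3 and over all trained mice held without any single library, and that in Y397D-T3 ended with the thalamus level as a covariate (0.40, limma adjusted p = 0.060). The VEH-T3 call ended without VEH-HC mouse 4 or VEH-T3 mouse 2. The Y397F-T10 call ended without VEH-HC mouse 2, 4 or 5 or Y397F-T10 mouse 3, 4, 5 or 6, with an adjusted p of up to 0.10.

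Ncoa3, which encodes a coactivator of nuclear receptors, was 4.67 to 6.37 FPKM in VEH-HC and 5.96 to 7.52 FPKM in VEH-T3, and these overlapped. It rose by 0.29 in VEH-T3, 0.22 in Y397D-T3 and 0.20 over all trained mice (limma adjusted p = 0.019, 0.046 and 0.024). Leaving out VEH-HC mouse 4 ended all 3 calls. The VEH-T3 call also ended without VEH-T3 mouse 2 or 3, and that over all trained mice without VEH-HC mouse 2 or 3. The Y397D-T3 call also ended without VEH-HC mouse 1, 2 or 3 or Y397D-T3 mouse 1, 2, 5 or 6, with an adjusted p of up to 0.12.

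Of 20 other genes known to be induced by glucocorticoids, 19 were tested. Klf9 rose in VEH-T3, Y397F-T10 and Y397D-T3, while Dusp1 fell in Y397F-T10. Over all trained mice Klf9 and Errfi1 rose and Dusp1 fell, which made 3 of 19 called beside 9.66% of all genes. At an unadjusted p under 0.05 there were 6 of 19, beside 25.3% of all genes. The list's median difference over all trained mice was 0.04, against -0.04 for all genes.

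Klf9, which encodes a Krüppel-like transcription factor, was 40.2, 44.1 and 50.9 FPKM in VEH-HC and 52.5, 57.8 and 60.6 FPKM in Y397D-T3. Every Y397D-T3 mouse lay above the home cage range, as for 2.5% of all genes. It was 44.0, 48.5 and 51.7 FPKM in VEH-T10, 45.4, 55.3 and 56.7 FPKM in Y397F-T10 and 45.9, 53.5 and 60.6 FPKM in VEH-T3. It rose by 0.35 in Y397D-T3, 0.26 in VEH-T3, 0.26 in Y397F-T10 and 0.25 over all trained mice (limma adjusted p = 0.0019, 0.021, 0.038 and 0.0037). Leaving out any single library kept the calls in Y397D-T3 and over all trained mice. The VEH-T3 call ended without VEH-HC mouse 4, and the Y397F-T10 call ended without any one of VEH-HC mice 2 to 6 and Y397F-T10 mice 3 to 6, with an adjusted p of up to 0.11.

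Dusp1, which encodes a phosphatase of MAP kinases and is also induced by neuronal activity, was 6.71 to 11.1 FPKM in VEH-HC. It was 5.67 to 7.05 FPKM in VEH-T10, 4.83 to 7.79 FPKM in Y397F-T10, 6.21 to 8.22 FPKM in VEH-T3 and 6.44 to 9.003 FPKM in Y397D-T3. It fell by 0.44 in Y397F-T10 (limma adjusted p = 0.036) and by 0.32 over all trained mice (limma adjusted p = 0.015), where 23 of 24 mice lay below the home cage median. In VEH-T10 the difference was -0.41 (limma adjusted p = 0.051). The second call ended without VEH-HC mouse 2 or 6, with an adjusted p of up to 0.070. The first ended without VEH-HC mouse 2, 4, 5 or 6 or Y397F-T10 mouse 3, 4, 5 or 6, with an adjusted p of up to 0.10. Neither Dusp1 call remained with the thalamus level as a covariate (-0.28, limma adjusted p = 0.20, and -0.18, limma adjusted p = 0.31). Errfi1, which encodes an inhibitor of epidermal growth factor receptors, rose by 0.18 over all trained mice (limma adjusted p = 0.037). That call ended without any one of the 6 home cage mice and with the thalamus level as a covariate (0.16, limma adjusted p = 0.18).

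Of 11 genes of corticosteroid metabolism, transport and releasing hormones, 8 were tested and none was called by limma in any comparison. At an unadjusted p under 0.05 there were 2 of 8 in VEH-T10, 1 in VEH-T3, 0 in Y397F-T10 and 3 in Y397D-T3 against VEH-HC. Of all genes, 14.9%, 21.6%, 16.9% and 24.9% passed. The Cyber-T-style test gave 0, 0, 0 and 1, beside 3.3%, 4.69%, 3.22% and 7.8% of all genes. The list's median difference over all trained mice was -0.09, against -0.04 for all genes.

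Among 5 zinc and metallothionein genes, 1 was called in Y397D-T3 and 1 over all trained mice, beside 7.07% and 9.66% of all genes. In both it was Slc30a1, a zinc exporter, which fell by 0.19 and by 0.15 (limma adjusted p = 0.018 for each). Its values were 9.44 to 11.03 FPKM in VEH-HC and 7.90 to 9.40 FPKM in Y397D-T3, without overlap, as for 3.02% of all genes on the lower side. These differences were -0.07 and -0.04 with the thalamus level as a covariate and were not called. Both calls ended without VEH-HC mouse 2, and that in Y397D-T3 also without Y397D-T3 mouse 2, with an adjusted p of up to 0.075. Of 10 p53 targets, 1 was called over all trained mice, beside 9.66% of all genes. It was Sesn2, a stress-induced regulator of growth signalling, which fell by 0.15 (limma adjusted p = 0.040). The call ended without any one of the home cage mice, VEH-T10 mouse 4 or VEH-T3 mouse 3, or with the thalamus level as a covariate (-0.11, limma adjusted p = 0.28). The other 9 were not called in any comparison. The median differences over all trained mice were 0.04 and -0.06 for the lists of zinc genes and p53 targets, against -0.04 for all genes.

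Depth differed little between libraries. The step that 1 fragment makes in the low values of 2642 genes gave a depth of 0.812 to 1.24 times that of the median library, with condition medians of 0.975 to 1.11. The 5 CA1 pyramidal markers were detected in every library at 5.09 to 5.67, and the 4 dentate granule markers at 2.87 to 4.18, so the dissected tissue held more than the CA1 field. Choroid plexus markers varied most, at 0.966 to 7.37 over the libraries.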

How the data were processed

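Per the methods of the study, RNA was sequenced as paired ends on NovaSeq and HiSeq instruments. Which library ran on which was not given in the sources used here. Per the submitters' processing notes, reads were aligned with TopHat2 2.1.1 to mm10 and Cufflinks 2.2.1 was used. The deposited table holds the authors' FPKM values per gene and library, without pooling. Read totals were not used here.

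Groups came from the sample labels. Values were analysed as log2(FPKM + 1), which understates the change of low genes, for genes of mean FPKM of at least 1. The test was limma 3.58.1 in R 4.3.3 over all 30 libraries (empirical Bayes with a trend, Benjamini-Hochberg adjustment, threshold 0.05, 2-sided). The study used Cyber-T, and a test of that kind (prior weight 10, Tukey p over 10 pairs of conditions) was an alternative. Correlations used 100000 permutations of libraries (2-sided; Python 3.11.15, numpy 2.4.6), within conditions after centring. In data simulated for VEH-T10 against VEH-HC (13184 genes), the limma script recovered 82% of genes changed by 0.5 and 96% of genes changed by 1 on the log2 scale.

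The members and lists were chosen with earlier results of these data known. All 10 members are named, with every called gene of the other lists (at most 6 per list) and the 3 genes most like each tested member. Coordinates are from GENCODE M21 and sequences from RefSeq (GRCm38.p6). The limma p-values set differences between conditions against the spread between these mice. The permutation p-values concern associations across the libraries.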

Additional observations from a re-analysis of the deposited data

Results flagged for a closer look

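Within each condition the highest or lowest mouse was compared with the other 5 by Dixon's gap, in 50 sets of 6 values, of which chance marks about 1 in 20. Mt1 and Mt2 in VEH-T3 mouse 5 stood at 971 and 585 FPKM, against 433 to 606 and 210 to 347 FPKM in the other VEH-T3 mice. That mouse also had the highest astrocyte (6.51), microglia (5.32) and oligodendrocyte (8.48) marker levels of its condition. The same held for its endothelial (4.23), mural (3.71), thalamus (2.50) and CA2 and CA3 (5.51) levels. The part these levels played was not tested. Without it, Mt2 in VEH-T3 differed from VEH-HC by -0.84 (limma adjusted p = 0.046). Sgk1 in Y397D-T3 mouse 3 was 22.3 FPKM, against 30.9 to 35.6 FPKM in the other mice of the condition, and Plin4 in the same mouse was 0.184 FPKM, against 0.391 to 0.491 FPKM. The endothelial (3.73) and microglia (4.35) marker levels of this mouse were the lowest of its condition. Plin4 in Y397F-T10 mouse 2 was 0.823 FPKM, against 0.239 to 0.373 FPKM in the others, and this mouse also held the highest Sgk1 of all 30.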

How the results depend on the processing

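The count of members called did not change for any comparison with a pseudocount of 0.1, without the filter on mean FPKM, with library medians subtracted, with length and GC trends removed (possible for 96.2% of genes) or with the dentate granule level as a covariate. The settings with marker levels, length and GC, or without the 3 libraries were chosen after the data were seen. At an unadjusted p, the counts were 2 in VEH-T10, 3 in VEH-T3, 3 in Y397F-T10, 3 in Y397D-T3 and 2 for all trained conditions, each against VEH-HC, beside 14.9%, 21.6%, 16.9%, 24.9% and 25.3% of all genes. The Cyber-T-style test gave 2 in VEH-T3, 2 in Y397F-T10 and 2 in Y397D-T3, beside 4.69%, 3.22% and 7.8% of all genes. The 12 libraries alone gave 0 in VEH-T3, beside 0.0% of all genes. With the thalamus level as a covariate the counts were 1 in VEH-T10, 1 in Y397F-T10 and 0 in Y397D-T3. With the astrocyte level it was 2 for all trained conditions, and without the 3 libraries it was 2 in Y397F-T10. Leaving out 1 library at a time gave 0 to 2 members in VEH-T3, 0 to 1 in Y397D-T3 and 0 to 1 for all trained conditions. Thalamus levels did not overlap between VEH-HC and VEH-T10, Y397F-T10 or Y397D-T3, so level and condition cannot be told apart there. With the thalamus level as a covariate, 20 of the 45 differences of the 9 tested members from VEH-HC changed direction, and the cause was not tested. Among those with an unadjusted p under 0.05 before, these were Mt2 in Y397D-T3 (-0.63 to 0.14) and Zbtb16 over all trained conditions (0.19 to -0.022). Among the rest were Mt2 (-0.43 to 0.27) and Cdkn1a (-0.03 to 0.70) over all trained conditions, Cdkn1a (-0.34 to 0.46) and Sgk1 (-0.16 to 0.26) in Y397D-T3, and Mt1 in VEH-T10 (-0.17 to 0.43). Under the other settings, leave-outs of 1 library not counted, at most 4 of 45 changed direction, all of differences of 0.08 or less.

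With library medians subtracted, the share of calls that were higher went from 38.9% to 71.7% in VEH-T10, 43.2% to 70.1% in VEH-T3, 41.6% to 71.4% in Y397F-T10, 55.3% to 73.6% in Y397D-T3 and 40.0% to 66.3% for all trained conditions. The replicate numbers are of different mice, and deviations of same-numbered libraries had a median correlation of 0.042 over 60 pairs, with 24 over 0.1 and 8 of 30 libraries best with their own number. With the replicate number as a block the counts of members called were as before, and Nr3c2 had an adjusted p of 0.032 in VEH-T3, 0.029 in Y397D-T3 and 0.017 for all trained conditions.

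Over all genes, the 12 libraries alone gave 321 calls in place of 108 in VEH-T10, 0 in place of 681 in VEH-T3, 43 in place of 149 in Y397F-T10 and 1845 in place of 932 in Y397D-T3. The Cyber-T-style test gave 435 in VEH-T10 and 424 in Y397F-T10. The count of 4 correlated pairs of members was 4 with library medians subtracted, 6 with condition means centred and 5 without the 2 farthest libraries. Of the values, under alternatives and leave-outs, of members with an unadjusted p under 0.05 and of the other named genes called, 746 kept direction and side of the threshold, 18 passed it newly, 98 no longer passed it and 2 changed direction.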
